A study of Mus musculus with 8 samples.

Results

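The nuclear-encoded subunits of the mitochondrial respiratory chain were examined in RNA from mouse Kupffer cells, which are liver-resident macrophages. Members were the genes whose symbols begin as the subunits of complexes I to V do (Nduf followed by a subunit letter and number, Sdha to Sdhd, Uqcr, Cox4 to Cox8, and Atp5), with pseudogenes left out. The rule uses symbols only. The rule found 85 genes with a transcript in the files, of 32903 genes in all. Complex I held 36 of them, complex II 4, complex III 8, complex IV 20 and complex V 17. Ndufa4 and its paralog Ndufa4l2 were placed with complex IV, where the Ndufa4 protein resides. Cox7a2l, a factor that joins complexes III and IV into supercomplexes, stayed in the count although it is not a plain structural subunit. The rule leaves out Cyc1, Ndufab1 and every subunit encoded by the mitochondrial genome.

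The respiratory chain passes electrons from NADH and succinate through complexes I to IV to oxygen and pumps protons across the inner mitochondrial membrane, and complex V, the ATP synthase, uses the resulting gradient to make ATP. Most subunits are encoded in the nucleus, and many are accessory proteins that surround a small catalytic core. In macrophages, inflammatory activation is known to favour glycolysis, while resident and alternatively activated cells lean more on oxidative phosphorylation. Several complex IV subunits exist as pairs of isoforms, one found in most tissues and the other in muscle, heart, lung or testis.

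The CCl4 group comprised 3 libraries of Kupffer cells from wild-type mice given carbon tetrachloride in corn oil, at 0.75 mL/kg, on 3 occasions a week over 8 weeks, a regimen that scars the liver. The naive group comprised 5 libraries of Kupffer cells from untreated wild-type mice. The CCl4 libraries carry the replicate names 1, 2-4 and 3, and the labels do not say whether the second was pooled. The mice's age and sex, how the cells were isolated and whether naive mice had corn oil is not given in the sources used here. The p-values cover only the variation among these libraries, which may be technical.

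Values are TPM, a unit corrected for transcript length and scaled to a fixed total, so levels can be set side by side between genes. TPM keep no read depth, and it is unknown here. The noncoding 7SL RNA held 27.8% to 35.8% of all TPM in CCl4 libraries and 27.5% to 41.3% in naive libraries, so TPM of the other genes move with it. The Kupffer cell identity was checked with 10 markers, of which 9 were lower and 0 higher in CCl4, their summed level being 754 to 956 TPM in CCl4 libraries and 2936 to 5654 TPM in naive libraries. Clec4f, a receptor that defines mouse Kupffer cells, was present in every library, at 65.6 to 87.2 TPM in CCl4 and 878 to 1928 TPM in naive. Of 9 monocyte and monocyte-derived macrophage markers 6 were higher and 0 lower in CCl4, with sums of 960 to 1730 TPM in CCl4 libraries and 149 to 297 TPM in naive libraries. All 10 markers of sinusoidal endothelium were lower in CCl4, with sums of 217 to 564 TPM in CCl4 libraries and 5456 to 10508 TPM in naive libraries. Of 10 hepatocyte markers 7 were lower and 0 higher, with sums of 229 to 858 TPM in CCl4 and 687 to 1447 TPM in naive. All 5 erythroid markers tested were lower, with sums of 50.7 to 92.5 TPM in CCl4 and 224.9 to 6752 TPM in naive. Of 10 stellate and mural cell markers 3 were higher and 2 lower, with sums of 141.2 to 161 TPM in CCl4 and 46.6 to 119.4 TPM in naive. Of 11 immediate early and stress genes 8 were higher and 0 lower, with sums of 2748 to 4468 TPM in CCl4 and 1276 to 2085 TPM in naive. In bulk RNA, fewer cells of a type and less RNA per cell cannot be told apart. The part of these markers in the results that follow was not tested.

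The summed respiratory chain transcripts differed between the groups by less than the spread between libraries. Summed over the 85 members, they came to 8364, 6812 and 6396 TPM in CCl4 replicates 1, 2-4 and 3, against 6904, 8300, 8179, 6937 and 6596 TPM in naive replicates 1 to 5. The groups overlapped: one CCl4 library was the highest of the 8 and another the lowest. The means were 7191 ± 1037 TPM in CCl4 and 7383 ± 794 TPM in naive (SD, n = 3 and 5), a ratio of 0.974. As a share of the TPM of protein-coding genes, the members took 1.49%, 1.36% and 1.35% in CCl4 libraries and 1.46%, 1.48%, 1.58%, 1.52% and 1.45% in naive libraries. On that scale 2 of the 3 CCl4 libraries lay below all naive libraries and the third lay among them.

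limma was run on log2(TPM + 1) over the 15629 genes that reached 1 TPM in 3 libraries or more, and an adjusted p under 0.05 was called. Of the members, 81 entered the test. The lung isoform Cox4i2, the testis isoforms Cox7b2 and Cox8c, and Ndufa4l2 did not pass the filter. Of the 81, 8 were called, 3 higher and 5 lower in CCl4, which is 9.88% of them, against 37.8% of all genes tested. In each direction the background was 15.3% of all genes called higher and 22.5% called lower, and the members stood at 3.7% and 6.17%. An unadjusted p under 0.05 was found for 14 members (17.3%), against 46.2% of all genes. The 3 CCl4 libraries did not overlap the 5 naive ones in 6 members (7.41%), 3 above and 3 below, against 36.9% of all genes tested.

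Most members' fold changes were held within narrow intervals. The 95% interval of the fold change lay wholly within 2-fold in both directions for 71 members (87.7%), against 57.7% of all genes tested. It lay within 1.5-fold for 40 members (49.4%), against 23.1% of all genes. The members' log2 fold changes had a median of -0.08 and quartiles of -0.26 and 0.11, with a median standard error of 0.17. They ranged from -0.77 to 1.76. The lowest was that of Cox8b, which entered the test through the naive libraries alone, so its size is not read as a result. The next lowest was that of Ndufa5, at -0.72. Over all genes tested the median was -0.06, the quartiles were -0.52 and 0.32 and the range was -7.13 to 5.77, with a median standard error of 0.20. A change of more than 2-fold was estimated for 2 members (2.47%) and for 21.1% of all genes. A log2 fold change above 0 was found for 28 members (34.6%) and for 45.1% of all genes tested.

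**Figure D1:**
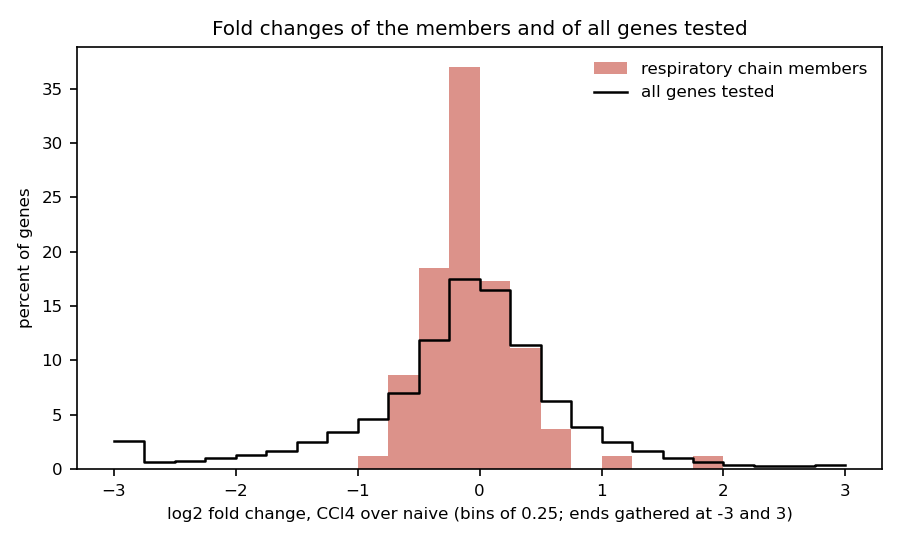
Percent of genes (vertical axis) by log2 fold change of CCl4 over naive (horizontal axis, bins of 0.25) for the 81 respiratory chain members tested (bars) and all 15629 genes tested (line). The members gather near 0, with a range of -0.77 to 1.76, while the line reaches farther on both sides. The lower end is Cox8b, which entered the test through the naive libraries alone.

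The number of members called depended on how the libraries were scaled and on single libraries. Scaled to the TPM of protein-coding genes, 21 members were called, 4 higher (4.94%) and 17 lower (21%), against 14.8% and 27.4% of all genes. Median-of-ratios scaling called 14, 7 higher and 7 lower (8.64% each), against 19.9% and 22.8% of all genes. Quantile normalization called 17, 10 higher (12.3%) and 7 lower (8.64%), against 25.7% and 19.7% of all genes, so the balance of higher and lower calls over all genes turned as well. The members gained with protein-coding scaling were Ndufa7, Ndufa8, Ndufb4, Ndufb9, Ndufs3, Ndufv1, Sdha, Sdhc, Uqcrq, Cox4i1, Cox7a2, Atp5g3 and Atp5j. Of these Ndufb9, Ndufs3, Cox4i1 and Atp5j were also gained by median of ratios, along with Ndufa6, Ndufc2 and Atp5e. Quantile normalization gained Ndufa6, Ndufb9, Ndufc2, Uqcrfs1, Cox6a2, Atp5e, Atp5g2, Atp5j and Atp5pb. The median log2 fold change of all genes was -0.06 with TPM as deposited, -0.11 scaled to protein-coding genes, 0.005 by median of ratios and 0.11 after quantile normalization, while that of the members was -0.08, -0.14, 0.00 and 0.01 in the same order. Left out singly, CCl4 replicates 1, 2-4 and 3 gave 14, 3 and 4 calls, and naive replicates 1 to 5 gave 5, 5, 4, 5 and 11. The share of all genes called in these fits ran from 29.7% to 43.5%. Ndufa13 and Ndufa5 were called under all 19 alternatives run, and Cox6b2 under all 18 in which it was tested.

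Complex I, the NADH dehydrogenase, had 36 members tested, of which 1 was higher and 2 were lower in CCl4, the log2 fold changes having a median of -0.09. In complex I, 7 were called without CCl4 replicate 1 and 5 without naive replicate 5, and 9, 7 and 6 under the 3 other scalings. Over all genes, the shares called in these settings were 33.9%, 43.5%, 42.2%, 42.7% and 45.4%, against 37.8% with the main fit. Its summed level was 2133, 1787 and 1687 TPM in CCl4 libraries and 1888, 2294, 2247, 1950 and 1767 TPM in naive libraries, which overlapped (means 1869 ± 234 and 2029 ± 231 TPM, SD). Scaled to protein-coding genes the sums did not overlap, each CCl4 library lying below each naive one. The highest subunit transcript was Ndufa3, an accessory subunit, with a mean of 155 TPM over the 8 libraries, and the lowest was Ndufa13, with 4.29 TPM. None of the core subunits named here was called. Ndufs1, which carries iron-sulfur clusters of the electron path, averaged 28.8 ± 5.9 TPM in CCl4 and 32.5 ± 3.6 TPM in naive (log2 fold change -0.19 ± 0.16, SE). Ndufv1, which binds the flavin that takes electrons from NADH, averaged 44.7 ± 5.9 TPM in CCl4 and 56.8 ± 9.99 TPM in naive (log2 fold change -0.33, adjusted p 0.146). Its neighbour in the same module, Ndufv2, averaged 43.4 ± 8.3 and 45.2 ± 5.8 TPM in CCl4 and naive.

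Ndufs3, another core subunit, read 44.0, 44.2 and 36.9 TPM in CCl4 libraries and 52.8, 63.8, 52.0, 48.8 and 47.2 TPM in naive libraries. Every CCl4 library lay below every naive one, yet the test did not call it (log2 fold change -0.33 ± 0.14, SE, limma adjusted p 0.0847).

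Ndufa5, an accessory subunit of the matrix arm, was lower in CCl4. It read 23.8, 17.3 and 19.3 TPM in CCl4 libraries and 33.6, 34.2, 39.0, 32.8 and 28.6 TPM in naive libraries. The groups did not overlap, and the log2 fold change was -0.72 ± 0.15 (SE, limma adjusted p 0.00332). Of its 2 RefSeq transcripts, the one more abundant in naive cells read 17.2, 9.74 and 6.895 TPM in CCl4 and 27.0, 31.0, 24.7, 28.8 and 19.7 TPM in naive, again without overlap. The other read 6.62, 7.52 and 12.4 TPM in CCl4 and 6.62, 3.21, 14.3, 4.01 and 8.91 TPM in naive, with the groups mixed. The division of reads between transcripts of 1 gene is an estimate of the quantifier.

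Ndufs4, an accessory subunit needed for a stable NADH-oxidizing arm and mutated in human Leigh syndrome, was lower as well. It read 19.4, 16.9 and 10.95 TPM in CCl4 libraries and 22.5, 25.9, 24.0, 20.3 and 20.8 TPM in naive libraries. The groups did not overlap, with a log2 fold change of -0.53 ± 0.18 (SE, limma adjusted p 0.0422). The call was lost in 9 of 19 alternatives, among them leaving out CCl4 replicate 2-4 (adjusted p 0.0583), CCl4 replicate 3 (log2 fold change -0.31, adjusted p 0.181), naive replicate 1 (0.0748), naive replicate 2 (0.0874), naive replicate 3 (0.0796) or naive replicate 4 (0.0562), and the adjusted p ranged over the alternatives from 0.00667 to 0.181.

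Ndufa13, also known as GRIM-19, an accessory subunit that has been linked to cell death and STAT3 signalling, was the member of complex I that was higher. It read 7.415, 5.75 and 7.72 TPM in CCl4 libraries and 4.59, 2.56, 1.48, 3.28 and 1.52 TPM in naive libraries. All CCl4 libraries lay above all naive ones, with a log2 fold change of 1.17 ± 0.28 (SE, limma adjusted p 0.00645). It is a low value for a complex I subunit and rests on 1 RefSeq transcript, and with a pseudocount of 5 the log2 fold change was 0.65. Its interval on chromosome 8 (69894163 to 69902558, GRCm38) overlaps Tssk6, and whether reads were assigned by strand is not given in the sources used here.

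Some members have near-identical copies in the genome. Ndufs5 read 28.5, 29.5 and 30.8 TPM in CCl4 and 29.45, 54.2, 60.6, 44.3 and 20.7 TPM in naive, a spread in naive cells that was wide. Its near-identical pseudogene read 26.9, 22.3 and 12.75 TPM in CCl4 and 18.8, 11.3, 9.79, 8.87 and 30.6 TPM in naive, highest in the naive libraries where Ndufs5 was lowest. The sum of both was 55.4, 51.8 and 43.6 TPM in CCl4 and 48.2, 65.5, 70.4, 53.1 and 51.3 TPM in naive. Near-identical copies, at 95% identity or more over at least 50% of the transcript, were found for 13 members in all. Among the called members this touched Uqcrb, which has 3. The Ndufs5 pseudogene lies on chromosome 16 (42955580 to 42956079, GRCm38) and spans the copy found (42955631 to 42955949), and no other copy was matched by name to a row of values. Whether reads were shared with the copies was not tested.

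**Figure D2:**
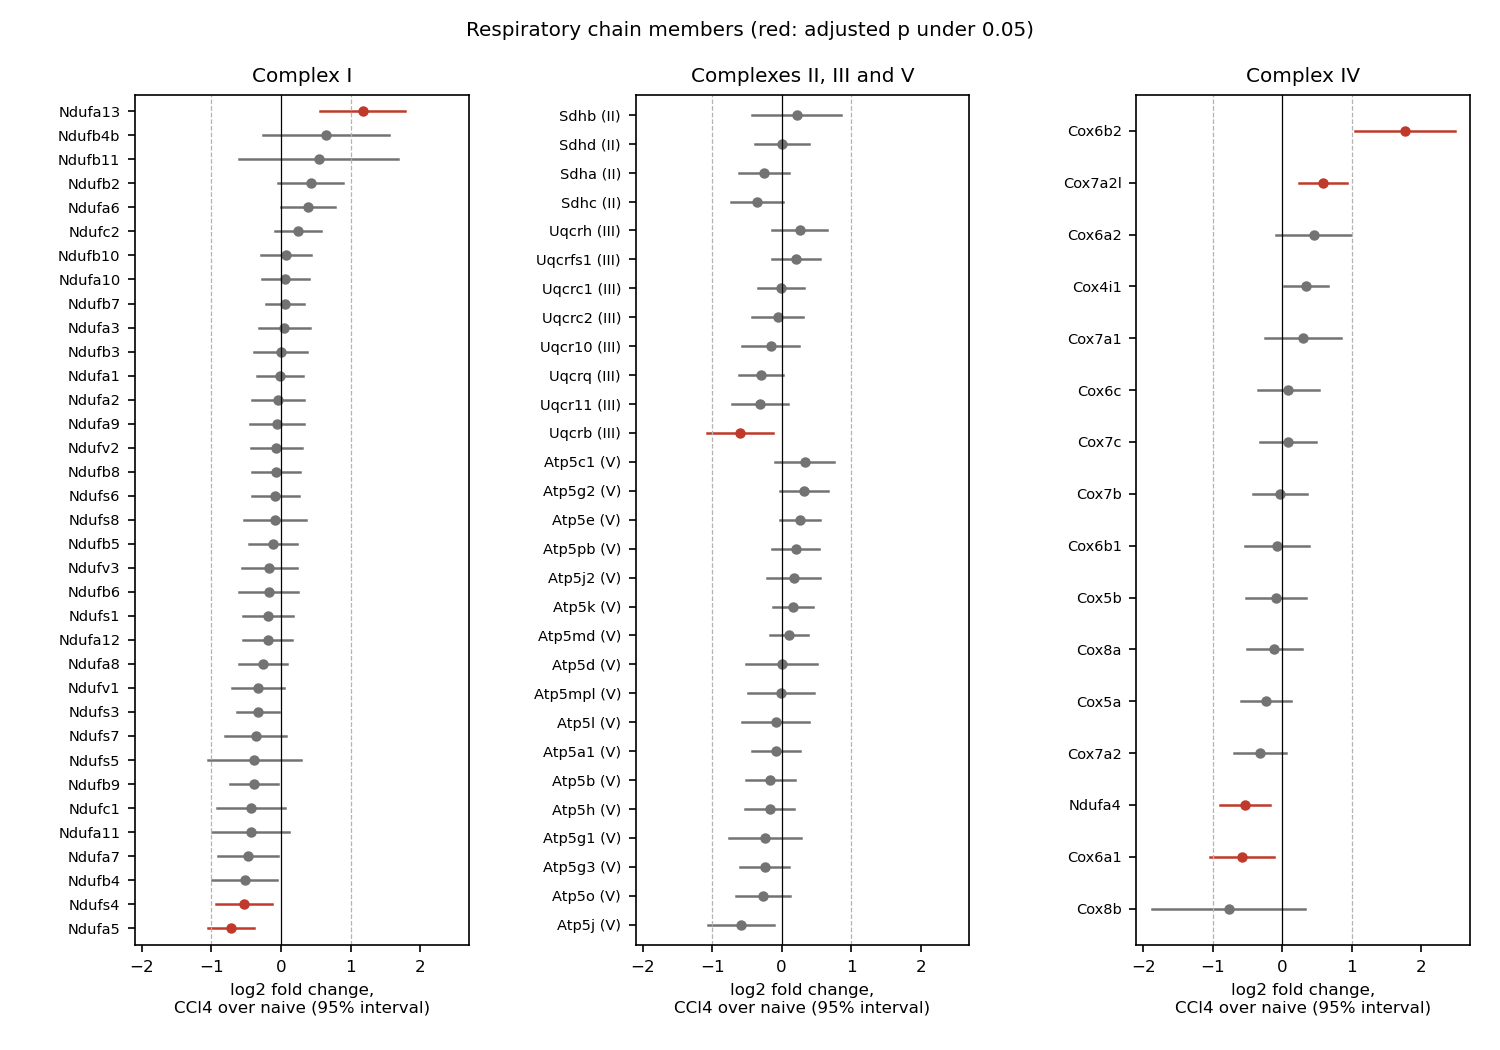
Log2 fold change of CCl4 over naive for the members shown, by complex, with its 95% interval; red marks an adjusted p under 0.05 and dashed lines mark 2-fold. Most intervals lie between the dashed lines, and red is found on both sides of 0 in complexes I and IV. Cox8b, the lowest of complex IV, entered the test through the naive libraries alone.

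Complex II, the succinate dehydrogenase, links the TCA cycle to the chain. None of its 4 subunits was called, against 37.8% of all genes tested. Sdha, the flavoprotein, read 92.0, 92.5 and 68.9 TPM in CCl4 and 96.4, 120, 113, 86.4 and 88.8 TPM in naive (log2 fold change -0.25 ± 0.16, SE, limma adjusted p 0.245). Sdhb, the iron-sulfur subunit, was the least abundant and read 12.7, 24.4 and 21.95 TPM in CCl4 and 13.4, 14.4, 10.8, 20.1 and 26.4 TPM in naive, with libraries of both groups at either end. The membrane anchors Sdhc and Sdhd averaged 68.7 ± 13.2 and 56.9 ± 9.9 TPM in CCl4, against 87.8 ± 13.7 and 56.7 ± 9.8 TPM in naive. All 4 intervals lay within 2-fold. The summed complex was 249, 249 and 191 TPM in CCl4 and 243, 298, 297, 230 and 242.5 TPM in naive. With protein-coding scaling each CCl4 sum lay below each naive one.

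Complex III, the cytochrome bc1 complex, had 1 of 8 members called, against 37.8% of all genes tested, and that one was lower. Uqcrb, which takes part in ubiquinone binding, read 82.1, 59.3 and 55.4 TPM in CCl4 and 93.3, 124, 120, 101 and 65.8 TPM in naive. The highest CCl4 library exceeded the lowest naive one, so the groups overlapped (log2 fold change -0.60 ± 0.22, SE, limma adjusted p 0.0497). The call sat at the threshold and held in 9 of 19 alternatives. It was lost on leaving out CCl4 replicate 2-4 (adjusted p 0.14), CCl4 replicate 3 (0.181) or any of naive replicates 1 to 4 (0.0725, 0.101, 0.0992 and 0.0881), within a range of 0.00558 to 0.181 over the alternatives. The Rieske protein Uqcrfs1, which passes electrons to cytochrome c1, averaged 54.8 ± 9.6 and 47.3 ± 6.4 TPM in CCl4 and naive. The core proteins Uqcrc1 and Uqcrc2 had log2 fold changes of -0.01 ± 0.15 and -0.06 ± 0.16 (SE). Cyc1, the cytochrome c1 gene that the rule does not take, averaged 50.04 ± 6.77 TPM in CCl4 and 56.9 ± 5.1 TPM in naive.

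Complex V, the ATP synthase, had none of 17 members called, against 37.8% of all genes tested. It had the highest median level of the 5 complexes, 134 TPM. Its sums were 2781, 2251 and 2137 TPM in CCl4 and 2238, 2656, 2677, 2260 and 2204 TPM in naive, with a ratio of means of 0.993. The catalytic beta subunit Atp5b read 313, 287 and 230 TPM in CCl4 and 267, 347, 365, 277 and 292 TPM in naive (log2 fold change -0.16 ± 0.16, SE). The alpha subunit Atp5a1 and the gamma subunit Atp5c1, which forms the rotating shaft, had log2 fold changes of -0.09 ± 0.16 and 0.33 ± 0.19 (SE). Atp5j, a subunit of the stalk, lay just outside the threshold: it read 139, 99.4 and 85.2 TPM in CCl4 and 151, 187, 191, 170 and 111 TPM in naive (log2 fold change -0.58 ± 0.21, SE, limma adjusted p 0.0514). It was the 1 call of complex V when CCl4 replicate 1 or naive replicate 5 was left out. Its gene overlaps Gabpa on chromosome 16.

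**Figure D3:**
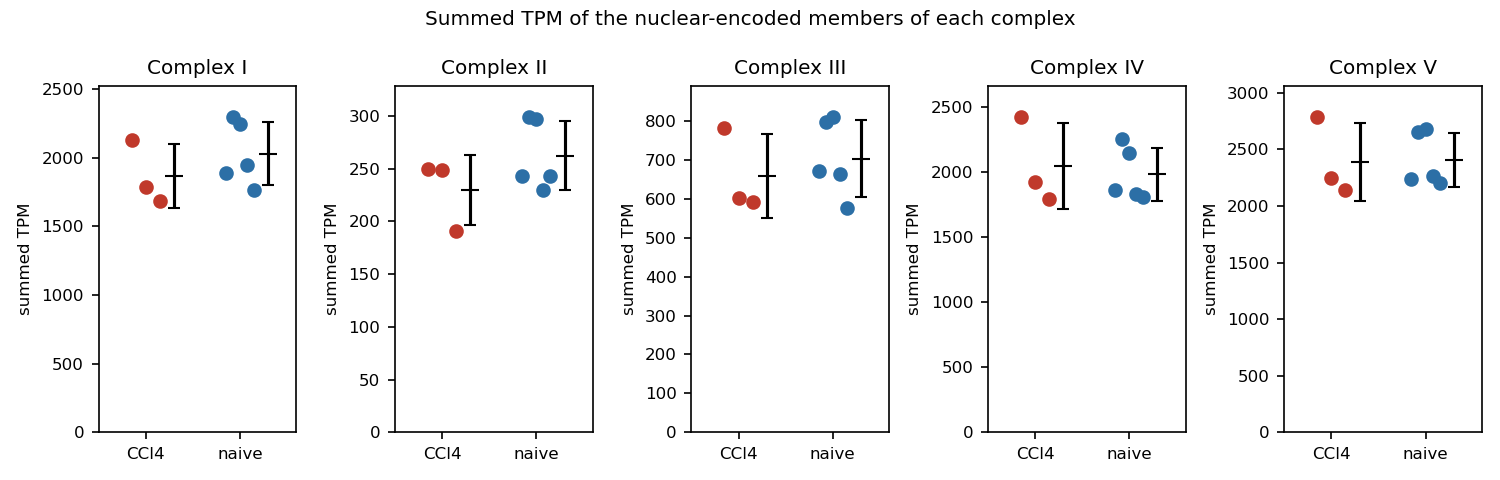
Summed TPM of the members of each complex (vertical axes, from 0) in each of the 3 CCl4 and 5 naive libraries (points), with mean and SD. With TPM as deposited, both groups overlap in all 5 complexes, with ratios of means from 0.876 (complex II) to 1.032 (complex IV).

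Complex IV, cytochrome c oxidase, held 4 of the 8 called members. Of its 16 members tested, 2 were higher and 2 lower in CCl4, against 15.3% and 22.5% of all genes tested. Both shares were below those of all genes. The 4 calls became 1 without CCl4 replicate 2-4, 2 without CCl4 replicate 3 and 2 without naive replicate 3. Its sums were 2419, 1925 and 1790 TPM in CCl4 and 1864, 2253, 2150, 1833 and 1808 TPM in naive, which overlapped (ratio of means 1.032). Scaled to protein-coding genes the ratio was 0.989. The subunit with the highest transcript level in the whole chain was Cox4i1, the common isoform of a regulatory subunit, with 544, 545 and 438 TPM in CCl4 and 368, 460, 424, 358 and 393 TPM in naive. Its CCl4 libraries were high but the lowest of them fell among the naive ones (log2 fold change 0.34 ± 0.14, SE, limma adjusted p 0.0879). It was called with protein-coding scaling (log2 fold change 0.29, adjusted p 0.0393), median of ratios (0.42, adjusted p 0.00751) and the GC correction (0.43, adjusted p 0.00695), not after quantile normalization (0.19, adjusted p 0.143). Cox5a and Cox5b, other nuclear subunits near the core, had log2 fold changes of -0.23 ± 0.16 and -0.09 ± 0.20 (SE).

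Cox7a2l was the abundant member that was higher. It read 247, 260.5 and 204 TPM in CCl4 libraries and 161, 193, 163, 144 and 128 TPM in naive libraries. All CCl4 libraries exceeded all naive ones (log2 fold change 0.59 ± 0.16, SE, limma adjusted p 0.013). Without CCl4 replicate 2-4 the adjusted p was 0.0526, with a log2 fold change of 0.52, and over the alternatives it ranged from 0.00052 to 0.246. Its homolog Cox7a2, the common isoform of a complex IV subunit, read 79.9, 56.5 and 51.6 TPM in CCl4 and 83.2, 77.2, 86.3, 76.6 and 63.1 TPM in naive (log2 fold change -0.32, adjusted p 0.168). The ratio of Cox7a2l to Cox7a2, which does not depend on how a library is scaled, was 3.09, 4.61 and 3.96 in CCl4 and 1.94, 2.50, 1.89, 1.88 and 2.03 in naive. This ratio was formed after the values of both genes were seen and was not tested.

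Ndufa4, a subunit at the surface of complex IV, was lower. It read 111, 81.5 and 81.4 TPM in CCl4 libraries and 130, 135, 161, 126 and 109 TPM in naive libraries. One CCl4 library lay just above the lowest naive one (log2 fold change -0.53 ± 0.16, SE, limma adjusted p 0.0242). It was no longer called when CCl4 replicate 2-4 (adjusted p 0.0887), CCl4 replicate 3 (0.101) or naive replicate 3 (0.0509) was left out, and its adjusted p ranged over all alternatives from 0.00293 to 0.111. Set against Cox4i1 within a library, a ratio also formed after the values were seen, Cox4i1 exceeded Ndufa4 by 4.90, 6.68 and 5.38 times in CCl4 and 2.84, 3.40, 2.63, 2.85 and 3.62 times in naive, without overlap.

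Cox6a1, the common isoform of subunit VIa, was lower. It read 167, 81.9 and 126 TPM in CCl4 libraries and 155, 201, 198, 184 and 165 TPM in naive libraries. The groups overlapped, and CCl4 replicate 2-4 was the lowest (log2 fold change -0.58 ± 0.21, SE, limma adjusted p 0.0486). The call held in 7 of 19 alternatives and was lost without CCl4 replicate 2-4 (log2 fold change -0.31, adjusted p 0.203), CCl4 replicate 3 (0.0986) or any of naive replicates 1 to 4 (0.0533, 0.0943, 0.0913 and 0.0857), within a range of 0.00922 to 0.549 over the alternatives.

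Cox6b2, known as the testis isoform of subunit VIb, had the largest fold change of the 81 members tested. It read 10.3, 4.80 and 5.80 TPM in CCl4 libraries and 1.84, 2.25, 1.39, 1.13 and 0.23 TPM in naive libraries. Every CCl4 library lay above every naive one (log2 fold change 1.76 ± 0.33, SE, limma adjusted p 0.00155). At this low level the size depends on the pseudocount, and the log2 fold change was 2.45 with 0.1 and 0.89 with 5. The files list 6 transcripts for it, and different ones carried its level in different libraries. The common isoform Cox6b1 read 302, 161 and 181 TPM in CCl4 and 202, 246, 257, 212 and 181 TPM in naive, so Cox6b2 stayed a small part of the pair.

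**Figure D4:**
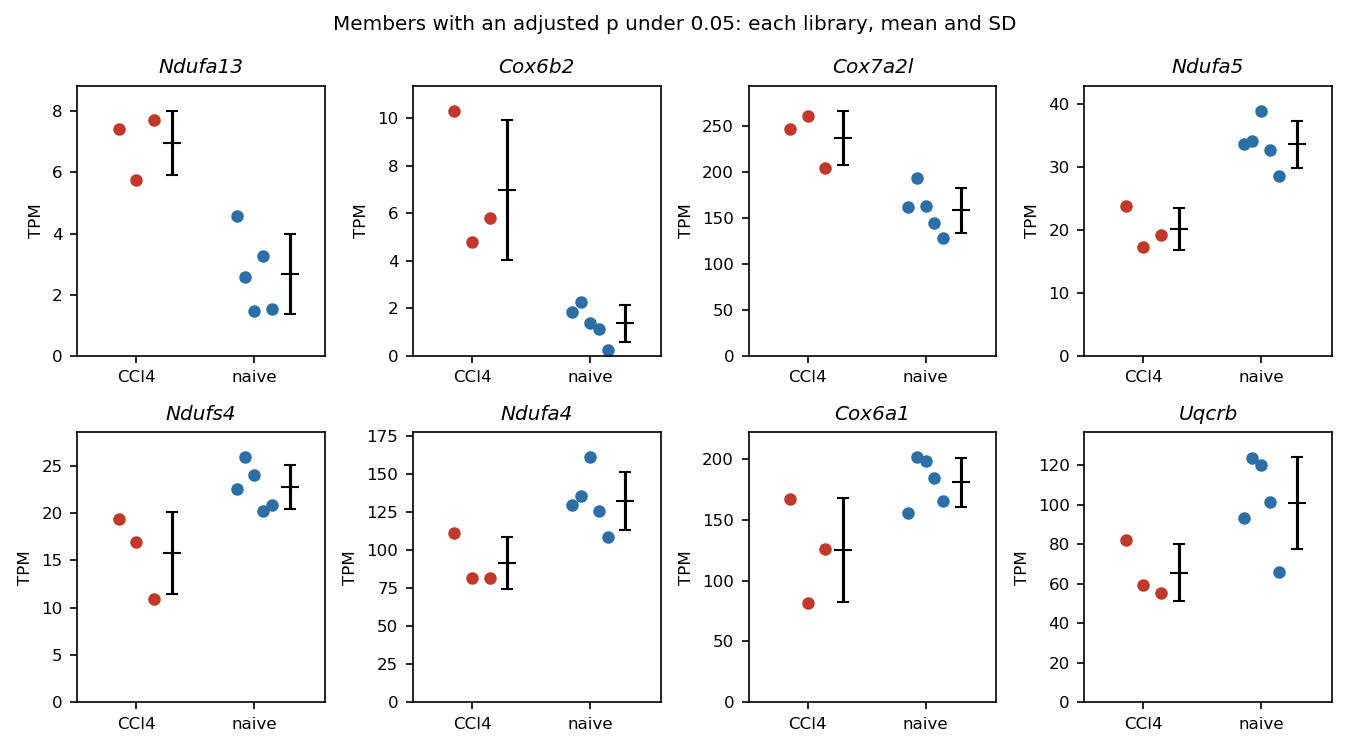
TPM (vertical axes, from 0) of the 8 called members in the 3 CCl4 and 5 naive libraries (points), with mean and SD. Ndufa13, Cox6b2 and Cox7a2l lie higher in CCl4 without overlap, Ndufa5 and Ndufs4 lie lower without overlap, and Ndufa4, Cox6a1 and Uqcrb overlap.

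The share of the tissue-restricted isoform, or of Atp5g1 in the Atp5g family, was compared in 8 families by exact permutation (two-sided, 56 arrangements), whose smallest possible p is 0.0179. The Cox6b2 share of Cox6b TPM was 3.31%, 2.89% and 3.11% in CCl4 and 0.904%, 0.907%, 0.538%, 0.531% and 0.130% in naive. It was higher in 3 of 3 CCl4 libraries than in any naive one (means 3.10% ± 0.21 and 0.602% ± 0.322, SD), with an exact permutation p of 0.0179 and an adjusted p of 0.0714 over the 8 families. The share of Cox6a2, the heart and muscle isoform, was 0.890%, 0.976% and 1.67% in CCl4 and 0.545%, 0.715%, 0.167%, 0.368% and 0.425% in naive, with the same p values. Cox6a2 itself read 1.50, 0.81 and 2.14 TPM in CCl4 and 0.85, 1.45, 0.33, 0.68 and 0.705 TPM in naive. These levels are near the filter and overlapped (limma adjusted p 0.173), and Cox6a1 was low in CCl4 replicate 2-4, at 81.9 TPM. None of the 8 families passed after adjustment. Cox6b and Cox6a were the only families at the smallest possible p. Adjusted over the 8 families, that p passes only where more families reach it, so the adjusted result does not decide the question. The muscle isoform Cox7a1 made up 2.33% ± 0.87 of the Cox7a family, Cox7a2l being in the family sum, in CCl4 and 2.31% ± 0.68 in naive (SD). Atp5g1, one of the genes for the proton-carrying ring subunit of complex V, made up 12.9% ± 3.3 of its family in CCl4 and 15.4% ± 1.8 in naive. Cox8b, a muscle isoform, read 0.999, 0 and 0.21 TPM in CCl4 and 2.46, 2.60, 3.24, 0.18 and 0 TPM in naive. It entered the limma test through the naive libraries alone, so a lower level in CCl4 was built into its selection. Cox4i2 stayed between 0.61 and 0.84 TPM in CCl4 and between 0.65 and 1.35 TPM in naive, Ndufa4l2 at no more than 0.45 and 1.04 TPM in CCl4 and naive, and Cox7b2 at no more than 0.11 and 0.20 TPM, while Cox8c was listed at 0 in all 8 libraries.

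**Figure D5:**
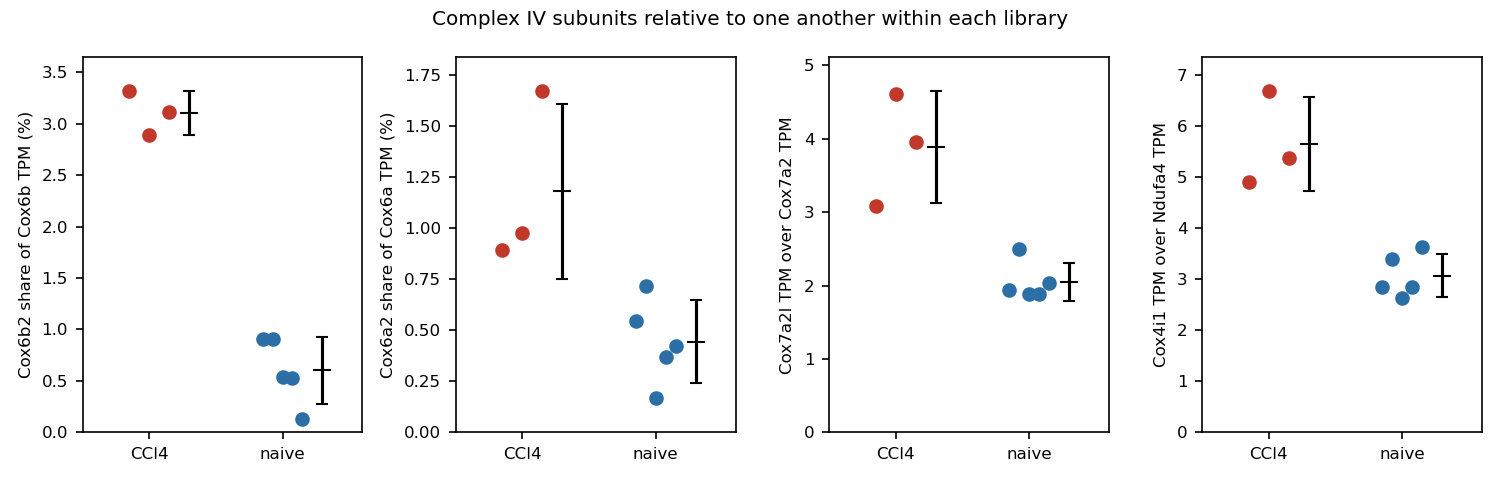
Isoform shares in percent of Cox6b2 and Cox6a2, and the ratios of Cox7a2l to Cox7a2 and of Cox4i1 to Ndufa4 (vertical axes, from 0), in the 3 CCl4 and 5 naive libraries (points), with mean and SD. In all 4 panels each CCl4 library lies above each naive library, although the TPM of Cox6a2 itself overlap. The last pair of panels was chosen after the values were seen.

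Promoters were read from RefSeq (GRCm38.p6), as the 250 bases before and 50 bases after the start of a gene, for the 69 members the table holds. Nuclear genes of the respiratory chain are known to be controlled by NRF1, by GABP, an ETS factor, by YY1 and by ERR alpha. The NRF1 core GCATGCGC was found, on either strand, in 14.5% of the members and in 3.05% of all promoters (3.94% of those of protein-coding genes). The ETS letters CCGGAAG were found in 24.6% and 9.93% (12.9%), and the YY1 letters AAGATGGC in 14.5% and 3.19% (3.57%), with the share in protein-coding genes in brackets. The GC box GGGCGG was found in 40.6% of the members, above the 38.2% of all promoters and below the 49.2% of those of protein-coding genes. TATAAA was found in 11.6% and 15.7% (14.8%), and the ERR letters TNAAGGTCA in 4.35% and 1.43% (1.19%). A promoter may hold more than 1 of these, and a match is a match of letters. The promoters of 4 called members are shown because they differ in these letters while 3 of the genes share a direction: Cox6a1, Ndufa5 and Ndufa4 were lower and Cox7a2l was higher. Capitals mark each match. Cox6a1 holds the NRF1 core, the ETS letters and GC boxes, Ndufa5 and Cox7a2l hold GC boxes alone, and Ndufa4 holds none of the 6. Of the called members not shown, Ndufa13 and Cox6b2, both higher, hold GC boxes alone, and Ndufs4, lower, holds the YY1 letters. Uqcrb, also called lower, is not among the 69 members with a promoter. Ndufa5 has another promoter, not shown, that also holds a GC box alone.
Cox6a1, chr5:115348909-115349208, minus strand: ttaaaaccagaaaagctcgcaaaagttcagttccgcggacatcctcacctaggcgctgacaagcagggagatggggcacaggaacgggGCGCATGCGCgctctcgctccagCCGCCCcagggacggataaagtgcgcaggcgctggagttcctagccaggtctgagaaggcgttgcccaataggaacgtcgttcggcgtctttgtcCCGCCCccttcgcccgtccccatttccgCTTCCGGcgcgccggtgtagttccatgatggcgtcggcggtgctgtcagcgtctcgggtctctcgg
Ndufa5, chr6:24527477-24527776, minus strand: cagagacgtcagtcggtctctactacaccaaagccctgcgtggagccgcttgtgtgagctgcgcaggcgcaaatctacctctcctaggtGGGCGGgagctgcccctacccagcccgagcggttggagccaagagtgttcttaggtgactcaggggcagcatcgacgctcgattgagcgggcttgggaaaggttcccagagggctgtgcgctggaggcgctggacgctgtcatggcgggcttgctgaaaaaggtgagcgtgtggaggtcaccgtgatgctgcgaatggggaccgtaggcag
Ndufa4, chr6:11907401-11907700, minus strand: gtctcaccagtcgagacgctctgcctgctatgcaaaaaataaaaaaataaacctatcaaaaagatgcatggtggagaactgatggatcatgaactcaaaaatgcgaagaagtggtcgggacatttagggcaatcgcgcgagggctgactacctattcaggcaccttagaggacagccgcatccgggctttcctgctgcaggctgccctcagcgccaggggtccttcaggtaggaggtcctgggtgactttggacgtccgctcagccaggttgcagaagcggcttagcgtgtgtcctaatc
Cox7a2l, chr17:83514284-83514583, minus strand: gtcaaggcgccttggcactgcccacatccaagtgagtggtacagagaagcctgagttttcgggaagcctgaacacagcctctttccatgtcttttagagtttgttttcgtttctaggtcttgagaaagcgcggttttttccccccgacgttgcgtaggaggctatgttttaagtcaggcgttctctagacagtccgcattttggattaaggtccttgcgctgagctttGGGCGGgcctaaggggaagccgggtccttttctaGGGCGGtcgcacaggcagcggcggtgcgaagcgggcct

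None of the genes for the regulators NRF1, GABP alpha, ERR alpha and TFAM was called. Nrf1 read 26.2, 34.1 and 23.0 TPM in CCl4 and 24.2, 25.4, 24.2, 22.1 and 22.1 TPM in naive, and was not called (log2 fold change 0.21 ± 0.15, SE, limma adjusted p 0.3). Gabpa, the DNA-binding subunit of GABP, averaged 14.9 ± 2.6 TPM in CCl4 and 15.35 ± 1.84 TPM in naive. Tfam, which maintains and transcribes mitochondrial DNA, averaged 13.4 ± 2.4 TPM in CCl4 and 14.95 ± 1.55 TPM in naive. Esrra, which encodes ERR alpha, averaged 24.4 ± 11.55 and 27.2 ± 4.5 TPM in CCl4 and naive, with CCl4 replicate 2-4 at 11.9 TPM. The coactivator Ppargc1a averaged 0.73 ± 0.38 TPM in CCl4 and 0.47 ± 0.09 TPM in naive and did not pass the filter, while its relative Ppargc1b averaged 4.03 ± 0.36 and 4.73 ± 0.87 TPM and was not called. Hif1a and Myc, which favour glycolysis and growth, had log2 fold changes of -0.24 ± 0.14 and 0.04 ± 0.16 (SE). Of the 20 regulators tested 1 was called higher, Ppard (log2 fold change 0.61, adjusted p 0.00593), and 1 lower, Ppara, against 15.3% and 22.5% of all genes. Ppara, a driver of fatty acid oxidation genes, read 0.61, 0.97 and 0.40 TPM in CCl4 and 2.15, 2.27, 2.11, 2.22 and 1.03 TPM in naive. It entered the test through the naive libraries alone, so a lower level in CCl4 was built into its selection and its size is not read as a result.

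Around the chain, 244 genes of assembly, carriers, fuel oxidation, glycolysis, mitochondrial ribosomes, import and regulation were tested, of which 7 were higher (2.87%) and 24 lower (9.84%), against the backgrounds of 15.3% and 22.5% given above. Complex I assembly factors had 0 of 16 higher and 4 lower (25%), a share near the background of 22.5%. They were led by Tmem186 (log2 fold change -0.67, adjusted p 0.0129) and Tmem126b (-0.65, adjusted p 0.0174). With 1 library left out, their count of lower genes was smallest without CCl4 replicate 2-4 (1) and CCl4 replicate 3 (0). Assembly factors of complexes II to V had 1 of 37 higher and 6 lower, with a median log2 fold change of -0.24. Among them Atpaf1, an assembly factor of the ATP synthase, read 7.99, 8.94 and 5.92 TPM in CCl4 and 15.3, 16.9, 16.8, 13.5 and 11.6 TPM in naive (log2 fold change -0.88 ± 0.18, SE, adjusted p 0.00289). Uqcc2, an assembly factor of complex III, was lower too (-0.59, adjusted p 0.0163). Of 15 carriers and associated genes, Coq2 and Coq7, which make ubiquinone, were lower (-0.56 and -0.72, adjusted p 0.00566 and 0.0104) and the other genes, cytochrome c (Cycs) among them, were not called. Mitochondrial ribosomal proteins had 1 of 77 higher (Mrpl45) and 5 lower (with Mrpl55 the lowest in adjusted p), and none of 23 import genes was called. These counts move with the scaling: by median of ratios and after quantile normalization, mitochondrial ribosomal proteins had 8 higher and 5 lower, and 10 higher and 3 lower, and 4 import genes were higher and 0 lower under both. With protein-coding scaling, 11 mitochondrial ribosomal proteins and 12 assembly factors of complexes II to V were lower.

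Fuel pathways moved at single genes. Of 21 TCA cycle genes, with pyruvate entry, 0 were higher and 2 (9.52%) lower, against 15.3% and 22.5% of all genes. Pcx, which makes oxaloacetate from pyruvate, read 2.75, 2.07 and 1.685 TPM in CCl4 and 7.875, 10.2, 13.55, 8.825 and 5.07 TPM in naive (log2 fold change -1.63, limma adjusted p 0.000636). Suclg2 was the other (-0.65, adjusted p 0.0429). Of these 21 genes, protein-coding scaling called 0 higher and 4 lower, median of ratios 3 and 2, and quantile normalization 5 and 2. Of 18 fatty acid oxidation genes 2 (11.1%) were called lower and 0 higher. One was Hadhb (-0.69, adjusted p 0.0132). The other, Cpt1b, a carnitine palmitoyltransferase, read 0.33, 0.002 and 1.93 TPM in CCl4 and 6.19, 5.01, 7.46, 5.33 and 3.61 TPM in naive. It entered the test through the naive libraries, and its log2 fold change was -3.61 with a pseudocount of 0.1 and -0.87 with 5, so no size is read from it. Of 17 glycolysis genes 4 were higher (23.5%) and 2 lower (11.8%), against 15.3% and 22.5% of all genes. Hk2, an inducible hexokinase, read 62.8, 76.2 and 51.1 TPM in CCl4 and 22.8, 23.0, 16.0, 18.65 and 30.1 TPM in naive (log2 fold change 1.49 ± 0.21, SE, adjusted p 0.000231). Ldhb, a lactate dehydrogenase subunit, read 9.64, 12.2 and 9.71 TPM in CCl4 and 44.0, 45.0, 41.9, 33.2 and 33.7 TPM in naive (-1.81 ± 0.16, SE, adjusted p 9.81e-06). The 31 calls among the 244 genes became 20, 13, 20 and 47 without CCl4 replicate 2-4, CCl4 replicate 3, naive replicate 2 and naive replicate 5. Scaled to protein-coding genes they were 8 higher and 46 lower, by median of ratios 25 and 24, and after quantile normalization 35 and 14.

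Within the groups most members were high or low in the same libraries. CCl4 replicate 1 was the highest CCl4 library for 59 of the 81 members and lay a median of 0.37 (log2) from the other CCl4 libraries over the members, against 0.08 over all genes tested. CCl4 replicate 3 was the lowest CCl4 library for 42 members and replicate 2-4 for 36. Their medians over the members were -0.225 and -0.152, against -0.182 and 0.116 over all genes. In naive, replicates 3 and 2 were the highest for 40 and 33 members and replicate 5 the lowest for 42. Naive replicates 3, 2 and 5 had medians of 0.206, 0.222 and -0.198 over the members. Over all genes these were 0.120, 0.188 and -0.157, so all genes leaned the same way in these naive libraries. Deviations of a library from its group were also related to the GC content of the transcript across 80 members, with r = -0.31 in CCl4 replicate 2-4, 0.41 in replicate 3 and 0.05 in replicate 1, while r was -0.09, 0.22 and -0.07 across 13648 genes. For the fold change between groups r was 0.12 across the members. These are descriptions across genes of shared libraries. Member transcripts were short, with a median of 722 bases against 2717 over all genes, and their median GC content was 51.7% against 50.3%.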

How the data were processed

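RNA was from isolated mouse Kupffer cells (3 CCl4 and 5 naive libraries). Library preparation was directional and began with 1.5 ug of total RNA, per the labels' protocols. Per the submitters' processing notes, kallisto 0.42.4 and GRCm38 were used, and the authors deposited TPM for each RefSeq transcript. Index, trimming and read depth were not given in the sources used here, so precision comes from the spread between libraries. A RefSeq table of GRCm38.p6 gave a gene for 86722 of 107384 transcripts, and the 20662 others, with 6.06% to 7.58% of TPM, were left out, so some sums are incomplete. Transcripts were summed per gene. The rule's symbol matched 105 genes: 15 pseudogenes were left out and 5 had no matched transcript here.

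Genes reaching 1 TPM in 3 or more libraries were fitted on log2(TPM + 1), a scale that understates changes of low genes, with limma 3.58.1 in R 4.3.3 (group only, eBayes with trend, Benjamini-Hochberg over all genes, threshold 0.05), a fit tested on simulated data. Copies were sought with BLAST 2.17.0 among GENCODE transcripts of the same build, which also gave GC content. Alternatives were pseudocounts of 0.1 and 5, no filter or 5 TPM, 3 rescalings, curated transcripts, library weights, a replicate block, a GC correction and each library left out. Members and lists were chosen with earlier results of these data known. Named genes were preset core subunits, isoform families, up to 3 called members per complex by size with a mean of at least 10 TPM, up to 2 genes per list by adjusted p, and preset regulators. Ndufa13, Ndufa3, Ndufs5, Atp5j, Cycs, Cyc1 the marker Clec4f and members gained under other scalings were added after their values were seen. The values of 1 member, kept in the counts and sums, are not reported here.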

Additional observations from a re-analysis of the deposited data

Results flagged for a closer look

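Within the 5 naive libraries, 6 of the 95 groups of values examined had a library far from the other 4 by Dixon's criterion, where chance gives about 1 in 20. In naive replicate 2, Ndufa1, an accessory subunit of complex I, stood at 73.3 TPM against 51.9 to 56.1 TPM in the others, Ndufb10 at 70.9 against 47.9 to 54.5 TPM, and Atp5g2 at 177 against 153 to 159 TPM. The same library was low for Ndufb4b, at 3.48 TPM against 13.15 to 16.1 TPM. Naive replicate 5 was low for Atp5l, at 133 TPM against 174 to 183 TPM, a gene with 9 near-identical copies in the genome. The Cox4i2 share of the Cox4i family was 0.366% in naive replicate 1 and 0.153% to 0.204% in the others. Cox4i2 was not tested between CCl4 and naive, and the other 5 genes were not called with TPM as deposited. Atp5g2 was called after quantile normalization (log2 fold change 0.34, limma adjusted p 0.0322) and with the GC correction (0.40, adjusted p 0.03).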

How the results depend on the processing

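The 8 calls among the members became 5 with no filter, 21 scaled to protein-coding genes, 14 by median of ratios, 17 after quantile normalization, 5 with curated transcripts and 15 with the GC correction, which was chosen after seeing the data. Leaving out 1 library gave 3 to 14. Over all genes, 22.7% were called with no filter, 32.8% with curated transcripts, 42.5% with library weights and 45.4% with the GC correction. Leaving out 1 library called 29.7% to 43.5% of all genes. In complex I the 3 calls became 9, 7, 6, 5 and 6 with protein-coding scaling, median of ratios, quantile normalization, library weights and the GC correction, and 2 to 7 without 1 library. Complex II had 2 with protein-coding scaling. Complex III had 0 with a pseudocount of 0.1, no filter, curated transcripts or the replicate block, 2 with protein-coding scaling, quantile normalization or the GC correction, and 0 to 1 without 1 library. Complex IV had 1 to 5 without 1 library. Complex V had 1 with the 5 TPM filter or library weights, 2 with protein-coding scaling or median of ratios, 4 after quantile normalization, 3 with the GC correction and 0 to 1 without 1 library. The 31 calls around the chain became 54, 49, 49 and 50 with the 3 scalings and the GC correction, and 13 to 47 without 1 library. No called member changed direction under any alternative. The count over all genes stayed within 1.5 times of 5906, and sums per complex moved by less than the spread between libraries. With protein-coding scaling, though, the sums of complexes I and II were lower in each CCl4 library than in each naive one. Isoform shares moved by less than their spread as well, but a ratio within a library cannot move when the library is rescaled.

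The groups share replicate names 1 and 3, whose libraries deviated from their groups with r = 0.08 and -0.04, so the numbers were not taken as pairs. With the replicate block, 6 members were called, 3 of them among the 8, and Cox7a2l, Ndufa4, Ndufs4, Cox6a1 and Uqcrb were not. In that fit 33 of 95 cytosolic ribosomal protein genes were higher, against 62 without it. Its group difference rests on the libraries named 1 and 3 alone, since no other name is shared, so it does not check all 8 libraries. The highest adjusted p given above for Cox7a2l, Ndufa4 and Cox6a1 came from it. Leaving out CCl4 replicate 3 ended the call of Ppara (adjusted p 0.0584). The unknown depth gives no counting error for members near 1 TPM, such as Cox6b2.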

Other observations

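AA467197, also known as Nmes1, a relative of Ndufa4 that the symbol rule does not take, entered the test through the CCl4 libraries. It read 12.7, 6.45 and 15.7 TPM in CCl4 libraries and 0.91, 0, 0.08, 0.37 and 3.31 TPM in naive libraries. All CCl4 libraries lay above all naive ones. Its log2 fold change was 4.47 with a pseudocount of 0.1 and 1.47 with 5, so no size is read from it, and a higher level in CCl4 was built into its selection. This gene was chosen after its values were seen.

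Cytosolic ribosomal protein genes, which like the respiratory chain members are numerous and abundant, differed from them in direction and count. Of 95 genes whose symbols begin as theirs do, 62 were higher (65.3%) and 2 lower (2.11%) in CCl4, against 15.3% and 22.5% of all genes tested, with a median log2 fold change of 0.60. The symbols also take in ribosomal S6 kinases, of which Rps6ka2 was lower (log2 fold change -2.21, limma adjusted p 0.000105). Rps9 read 1784, 1959 and 1664 TPM in CCl4 and 744, 914, 817, 713 and 843 TPM in naive (log2 fold change 1.16 ± 0.15, SE, adjusted p 0.000143). The count with a higher level was 68, 72 and 56 with protein-coding scaling, median of ratios and quantile normalization, and 47 to 63 when 1 library was left out, the lowest without CCl4 replicate 1. Immediate early and stress genes had 8 of 11 higher, against the same 15.3% of all genes, with sums of 2748 to 4468 TPM in CCl4 and 1276 to 2085 TPM in naive, and the part of these in the ribosomal values was not tested.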
